A study of Mus musculus with 10 samples.

Results

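Basic helix-loop-helix (bHLH) genes that specify tissues, and the bHLH genes that oppose them, were examined for H3K27me3 and Mtf2 peaks in erythroblasts of the mouse fetal liver (FL). The group was set by name and held 46 of the 22225 protein-coding genes annotated in GENCODE M1: 18 neural factors, 9 mesodermal factors, 4 muscle factors, *Ascl2* and *Lyl1* as 2 others, 9 *Hes* and *Hey* genes and 4 *Id* genes. All 46 were found in the annotation. A gene was counted as carrying a peak when any base of a peak lay within 5 kb of one of its annotated transcription start sites (TSS).

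The peaks came from e14.5 FL cells of WT embryos and of Pcl2 -/- embryos, Pcl2 being another name for Mtf2, an accessory protein of the Polycomb repressive complex PRC2. The knockout embryos, called Mtf2-null here, came from gene-targeted C57Bl/6 embryonic stem cells, which were made into chimeras with CD1 blastocysts and then bred on C57Bl/6, the strain background labelled for both genotypes. The deletion is constitutive, so that erythroblasts and all other cells lack Mtf2. Cells were sorted, 500000 per sample, into a CD71+Ter119-/lo fraction of earlier erythroblasts and a CD71+Ter119high fraction of more mature ones. H3K27me3 was assayed by ChIP-seq in both fractions of both genotypes and Mtf2 in both WT fractions, each against an IgG control library of that fraction and genotype. This gave 10 libraries, 6 of them ChIP and 4 IgG. There was 1 library per condition, so no spread between replicates could be computed, no test between conditions was possible, and every count below describes these libraries only. The study's methods state that ChIP-seq was done in replicates, but whether they were pooled is not given in the sources used here. The first line of the design text says H3K4me3, but everything else, from the rest of that text to the antibody labels, says H3K27me3, which is used here. WT H3K27me3 and Mtf2 shared their IgG library within each fraction.

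bHLH factors bind DNA as dimers through a basic region next to the helix-loop-helix. Tissue factors such as *Neurog2*, *Hand2* or *Myod1* pair with the broadly expressed E proteins and switch on neural, cardiac or muscle programs. *Hes* and *Hey* genes, many of them targets of Notch signaling, encode bHLH repressors of such programs, and *Id* genes encode proteins without the basic region that take E proteins out of action. PRC2 trimethylates lysine 27 of histone H3, a repressive mark that often covers CpG islands, GC-rich stretches dense in CG dinucleotides, at developmental genes silent in a given lineage.

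The base composition below the peaks is shown by a few 200-base windows, each placed inside its peak, outside annotated untranslated regions and otherwise as near to the summit as possible. Each is written 5' to 3' on the strand of the gene (NCBIM37, the assembly of mm9), with CG dinucleotides in capitals. The windows of *Hes5* and *Olig2* come from the 2 member peaks with the highest scores in WT CD71+Ter119high H3K27me3, and the *Olig1* pair sets a WT CD71+Ter119high peak beside the Mtf2-null peak of the same fraction. The *Hey1* window shows a peak of the earlier WT fraction. The remaining windows come from the only member peak that overlapped a WT CD71+Ter119high peak in an Mtf2-null library and from the only member peak of each Mtf2 library.
Hes5 in WT CD71+Ter119high H3K27me3, chr4:154335582-154335781, + strand: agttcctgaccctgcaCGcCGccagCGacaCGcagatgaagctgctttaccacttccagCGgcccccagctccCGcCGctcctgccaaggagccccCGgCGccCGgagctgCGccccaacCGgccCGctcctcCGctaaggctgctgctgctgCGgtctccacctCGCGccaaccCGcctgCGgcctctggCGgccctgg
Olig2 in WT CD71+Ter119high H3K27me3, chr16:91227182-91227381, + strand: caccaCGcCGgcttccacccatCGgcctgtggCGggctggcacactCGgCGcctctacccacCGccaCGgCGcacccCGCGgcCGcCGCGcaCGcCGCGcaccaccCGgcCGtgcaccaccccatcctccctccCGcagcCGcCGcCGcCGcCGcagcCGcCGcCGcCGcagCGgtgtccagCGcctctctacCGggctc
Olig1 in WT CD71+Ter119high H3K27me3, chr16:91270491-91270690, + strand: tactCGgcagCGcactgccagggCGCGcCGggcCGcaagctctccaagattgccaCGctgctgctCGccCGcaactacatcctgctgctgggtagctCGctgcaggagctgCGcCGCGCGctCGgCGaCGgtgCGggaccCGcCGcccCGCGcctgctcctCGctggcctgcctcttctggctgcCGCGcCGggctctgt
Olig1 in Mtf2-null CD71+Ter119high H3K27me3, chr16:91265776-91265975, + strand: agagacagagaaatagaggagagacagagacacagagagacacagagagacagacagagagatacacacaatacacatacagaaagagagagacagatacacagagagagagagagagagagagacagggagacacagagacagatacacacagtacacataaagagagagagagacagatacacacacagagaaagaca
Hey1 in WT CD71+Ter119-/lo H3K27me3, chr3:8668977-8669176, - strand: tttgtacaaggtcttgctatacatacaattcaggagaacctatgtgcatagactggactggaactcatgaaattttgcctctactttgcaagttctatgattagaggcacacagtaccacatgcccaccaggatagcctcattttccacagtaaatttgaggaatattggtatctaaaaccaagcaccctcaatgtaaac
Hes5 in Mtf2-null CD71+Ter119-/lo H3K27me3, chr4:154334093-154334292, + strand: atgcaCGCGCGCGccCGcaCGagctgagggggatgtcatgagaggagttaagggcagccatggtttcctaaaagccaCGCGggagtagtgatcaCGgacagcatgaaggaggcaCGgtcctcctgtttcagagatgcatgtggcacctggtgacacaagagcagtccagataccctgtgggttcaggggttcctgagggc
Neurod4 in WT CD71+Ter119high Mtf2, chr10:129712841-129713040, - strand: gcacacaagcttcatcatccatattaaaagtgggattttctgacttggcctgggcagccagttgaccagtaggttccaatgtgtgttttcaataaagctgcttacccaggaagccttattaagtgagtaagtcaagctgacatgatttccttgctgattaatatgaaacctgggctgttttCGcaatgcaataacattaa
Atoh7 in WT CD71+Ter119-/lo Mtf2, chr10:62567790-62567989, + strand: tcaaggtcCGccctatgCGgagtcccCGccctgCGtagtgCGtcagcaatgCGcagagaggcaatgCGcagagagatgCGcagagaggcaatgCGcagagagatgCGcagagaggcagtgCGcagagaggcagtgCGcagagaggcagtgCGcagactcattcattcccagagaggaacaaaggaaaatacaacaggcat

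The WT CD71+Ter119high windows of *Hes5*, *Olig2* and *Olig1* lay wholly in coding sequence and held 20, 32 and 26 CG dinucleotides at 73.0%, 80.0% and 73.5% GC. Around the *Hey1* summit of the WT CD71+Ter119-/lo peak there was no CG at all in 200 bases of 40.0% GC. The *Olig1* window of the Mtf2-null CD71+Ter119high peak also held no CG and consisted largely of repeated purine-rich and CA-rich units. Of the 195 six-base words a 200-base window can hold, it had 70 different ones, while the WT *Olig1* window had 169. The *Atoh7* window of the Mtf2 peak was a tandem repeat as well, with 108 different words and 13 CG. The *Hes5* window of the Mtf2-null CD71+Ter119-/lo peak held 10 CG and the *Neurod4* window of the Mtf2 peak held 1.

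In WT CD71+Ter119high cells 23 of the 46 genes carried an H3K27me3 peak, beside 11.6% of all protein-coding genes in the same library. The genes with a peak included neural determinants (*Neurog2*, *Olig2*), cardiac and mesodermal factors (*Hand1*, *Hand2*, *Twist1*), and most of the *Hes* and *Hey* repressors. In WT CD71+Ter119-/lo cells 6 of 46 did, or 13.0%, beside 3.3% of all genes. In the Mtf2-null libraries 1 gene carried a peak in CD71+Ter119high cells, or 2.17% beside 1.64% of all genes, and 2 did in CD71+Ter119-/lo cells, or 4.35% beside 1.28%. Mtf2 peaks lay at 1 gene in each WT fraction, which is 2.17% of the members beside 1.51% of all genes in CD71+Ter119high cells and 8.46% in CD71+Ter119-/lo cells. The members' share was thus above the background in both WT H3K27me3 libraries. It was within 1 gene of the background in 2 of the other lists and within 2 genes in the Mtf2-null CD71+Ter119-/lo list. For Mtf2 in CD71+Ter119-/lo cells it was below the background. The members were chosen with earlier results of these data known, so their shares above the background may partly reflect that choice. Of 12 further bHLH genes outside the group, 1 carried a WT CD71+Ter119high H3K27me3 peak. The 6 genes of WT CD71+Ter119-/lo cells fell to 0 with a score of 100 or more, with an FDR of 5% or less or with equal numbers of peaks per list, and to 2 in a window of 1 kb. The libraries differed in depth, with 30054186 and 18945784 unique tags in WT and 67169672 and 37026535 in Mtf2-null CD71+Ter119high and CD71+Ter119-/lo H3K27me3, and 15669899 and 29009650 for Mtf2.

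**Figure D1:**
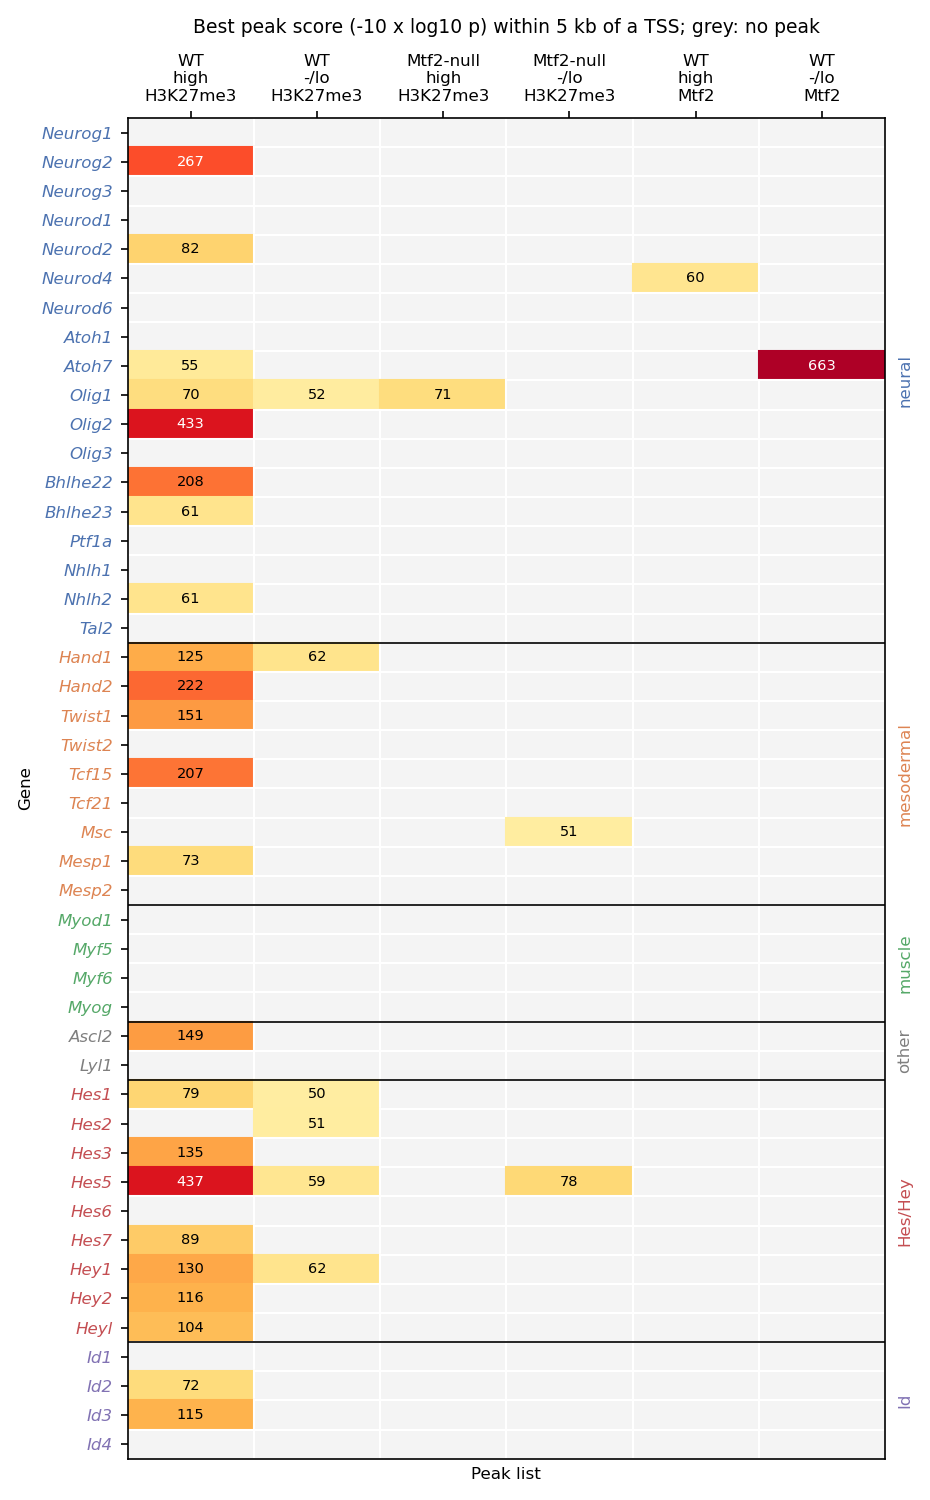
Best peak score within 5 kb of a TSS for each of the 46 genes (rows, by class) in each of the 6 peak lists (columns). Numbers and colour give the score, 10 times the negative log10 of the peak's p, and grey means that no peak was called. The WT CD71+Ter119high H3K27me3 column holds 23 genes, from *Atoh7* at 54.81 to *Hes5* at 437.18, and the Mtf2-null columns hold 1 and 2.

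By class, the WT CD71+Ter119high H3K27me3 peaks lay at 8 of 18 neural factors (44.4%), 5 of 9 mesodermal factors (55.6%), none of the 4 muscle factors, 7 of 9 *Hes* and *Hey* genes (77.8%) and 2 of 4 *Id* genes. Taken as the 2 sides, 13 of 31 tissue factors (41.9%) and 9 of 13 inhibitors (69.2%) carried a peak, so that both were above the background. The sides follow gene family and tissue, so repressors such as *Bhlhe22* and *Msc* count as tissue factors. Members are neither replicates nor independent of one another, and the difference between the 2 sides was not tested. In WT CD71+Ter119-/lo cells the order was alike at the deposited threshold, though it rests on those 6 weak calls, with 2 of 31 tissue factors (6.45%) and 4 of 13 inhibitors (30.8%), all 4 of them *Hes* or *Hey* genes. E proteins, the partners of the tissue factors, had no peak in any list at any of 3 genes, which is near the background of 11.6% in the list with the highest share.

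**Figure D2:**
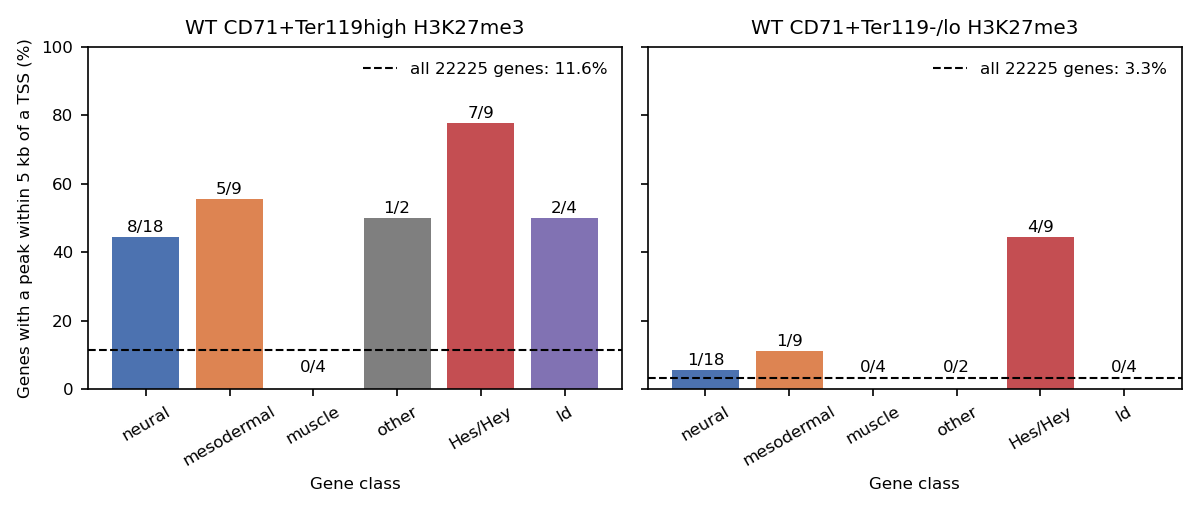
Share of genes in each class (%) whose 5 kb window held a peak, in the 2 WT H3K27me3 libraries, with the number of genes above each bar. The dashed line is the share of all 22225 protein-coding genes, 11.6% and 3.3%. *Hes* and *Hey* genes have the highest bar in both, and muscle factors have none.

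Among the neural factors, *Olig2*, which directs motor neuron and oligodendrocyte fates, had the strongest peak. It held 146 tags (95% interval 123 to 172, counting error only) at chr16:91225896-91228345, with a fold enrichment over IgG of 14.6 and a score of 433, which ranked 70 of 4490 in its library. Fold enrichment is the ratio of tags to the local IgG background and the score is 10 times the negative log10 of the peak's p. *Neurog2*, a proneural determinant of neuronal fate, followed with 93 tags, a fold enrichment of 15.4 and a score of 267 at chr3:127335701-127337627. *Bhlhe22*, a repressor used by cortical and retinal neurons, had 75 tags, a fold enrichment of 12.8 and a score of 208.

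The neural peaks ranged widely, and the weaker ones were near the limit of calling. *Olig1*, a partner of *Olig2* in oligodendrocytes whose TSS lies 44.2 kb away, had 38 tags and a score of 70.4. *Atoh7*, needed for retinal ganglion cells, had 50 tags at its start and the lowest score of the 23 genes, 54.8. *Bhlhe23*, *Nhlh2* and *Neurod2*, together with the mesodermal *Mesp1*, held between 24 and 74 tags with scores between 61.1 and 82.2. The 10 neural factors without a peak were *Neurog1*, *Neurog3*, *Neurod1*, *Neurod4*, *Neurod6*, *Atoh1*, *Olig3*, *Ptf1a*, *Nhlh1* and *Tal2*. Paralogs of a factor with a peak were thus among those without one.

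Of the mesodermal factors, *Hand2*, which acts in heart and limb, had 76 tags, a fold enrichment of 15.7 and a score of 222 at chr8:59799820-59801571. *Tcf15*, which acts in somites, had 61 tags but the second highest fold enrichment of the group, 16.8, and a score of 207. *Twist1*, a regulator of mesenchyme, had 78 tags, a fold enrichment of 11.1 and a score of 151. *Hand1*, the other cardiac Hand factor, carried 2 adjoining peaks of 65 and 58 tags, whose fold enrichments of 6.78 and 6.96 were lower. *Mesp1* had a peak while *Mesp2*, its neighbour at 16.9 kb, did not, and *Twist2*, *Tcf21* and *Msc* also had none.

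The muscle determinants *Myod1*, *Myf5*, *Myf6* and *Myog* carried no peak in any of the 6 lists. Beside 11.6% of all genes in WT CD71+Ter119high H3K27me3, or 6.26% of genes that are not CpG island-like, 0 of 4 is near the background. The nearest WT CD71+Ter119high H3K27me3 peak edge was 8.39 kb from a *Myog* TSS and 19.3 kb from *Myod1*, whereas *Myf6* and *Myf5*, which lie beside each other, had none within 837 and 845 kb. Over all 23 genes without a peak, the nearest edge lay between 6.03 kb, at *Hes2*, and 1641 kb, at *Neurod1*, with a median of 347 kb. Of these genes 2 were within 10 kb, and the other 21 had no peak even in a window of that width. A gene without a called peak is not shown to lack the mark.

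*Ascl2*, a factor of trophoblast and intestinal stem cells, had 63 tags, a fold enrichment of 10.6 and a score of 149 in WT CD71+Ter119high cells. *Lyl1*, a hematopoietic bHLH factor related to *Tal1*, had no peak in any list. Of 10 erythroid genes, among them globin genes and *Gata1*, none had a peak in any list, which is near the background of 11.6% and below and cannot check the sort.

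Among the inhibitors, *Hes5*, a Notch target that keeps neural progenitors from differentiating, had the highest score of the whole group. Its main peak held 115 tags (95% interval 94.9 to 138) at chr4:154334675-154336450, with a fold enrichment of 17.2 and a score of 437, ranking 63 of 4490. Upstream of it lay 3 more peaks of 41, 33 and 33 tags, the farthest with its summit 3.38 kb from the TSS. *Hes1*, the most widely used Notch target of the family, had 3 peaks of 91, 41 and 73 tags, whose scores of 79.4, 62.0 and 50.2 were much lower. *Hey1*, *Hey2* and *Heyl*, Notch targets of the cardiovascular system, had best scores of 130, 116 and 104 from peaks of 98, 49 and 40 tags. *Hey1* lay under a single peak of 2453 bp over its start, while *Hey2* and *Heyl* had 2 peaks each.

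*Hes7*, of the somite clock, had 65 tags and a score of 88.5 within the gene. The *Hes3* peak, 62 tags and a score of 135, lay 4.90 kb from the nearest *Hes3* TSS and only 789 bp from that of the neighbouring *Gpr153*, so it is counted for *Hes3* through the window alone. *Hes2* and *Hes6* had none. Of the *Id* genes, *Id3* had 4 peaks of 28 to 42 tags and a best score of 115. *Id2* had a single peak of 35 tags and a score of 72.1, 2.80 kb upstream of its TSS. *Id1* and *Id4* had no peak in any list.

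With 2 or more WT CD71+Ter119high peaks there were 5 of the 9 inhibitors (*Hes1*, *Hes5*, *Hey2*, *Heyl* and *Id3*) and 2 of the 13 tissue factors (*Olig2* and *Hand1*). Among all genes with a peak in that library 20.1% had 2 or more. Windows were drawn around every annotated TSS, and the number of TSS was not adjusted for. *Hes1* had 4 TSS, *Heyl* and *Id3* 3, *Hes5* and *Hand1* 2, and *Hey2* and *Olig2* 1. The downstream *Heyl* peak lay beyond 5 kb of the outermost 5' end and was counted through another TSS. The sides also differed in where the best peak lay. The summit was downstream of the nearest TSS for all 13 tissue factors, and for 4 of the 9 inhibitors, beside 62.6% of all 2567 genes with a peak. It lay in an exon for 11 of the 13 tissue factors (84.6%) and for 3 of the 9 inhibitors (33.3%), beside 45.1% of all such genes. Median distances to the TSS were 727 bp and 1364 bp, beside 340 bp over all such genes.

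Pooled, the 2 sides were close in the median strength of their peaks, while the classes within them differed. The best peaks held a median of 65.0 tags at a fold enrichment of 8.99 in the tissue factors and 62.0 tags at 10.1 in the inhibitors. Median best scores were 76.3 in neural and 151 in mesodermal factors, 116 in *Hes* and *Hey* genes and 93.4 in the 2 *Id* genes. Over all 23 genes the medians were 63.0 tags and 10.1, beside 53.0 tags and 8.98 over all genes with a peak. A score of at least 100 was reached by 14 of the 23, while 48.1% of all genes with a peak reached it.

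**Figure D3:**
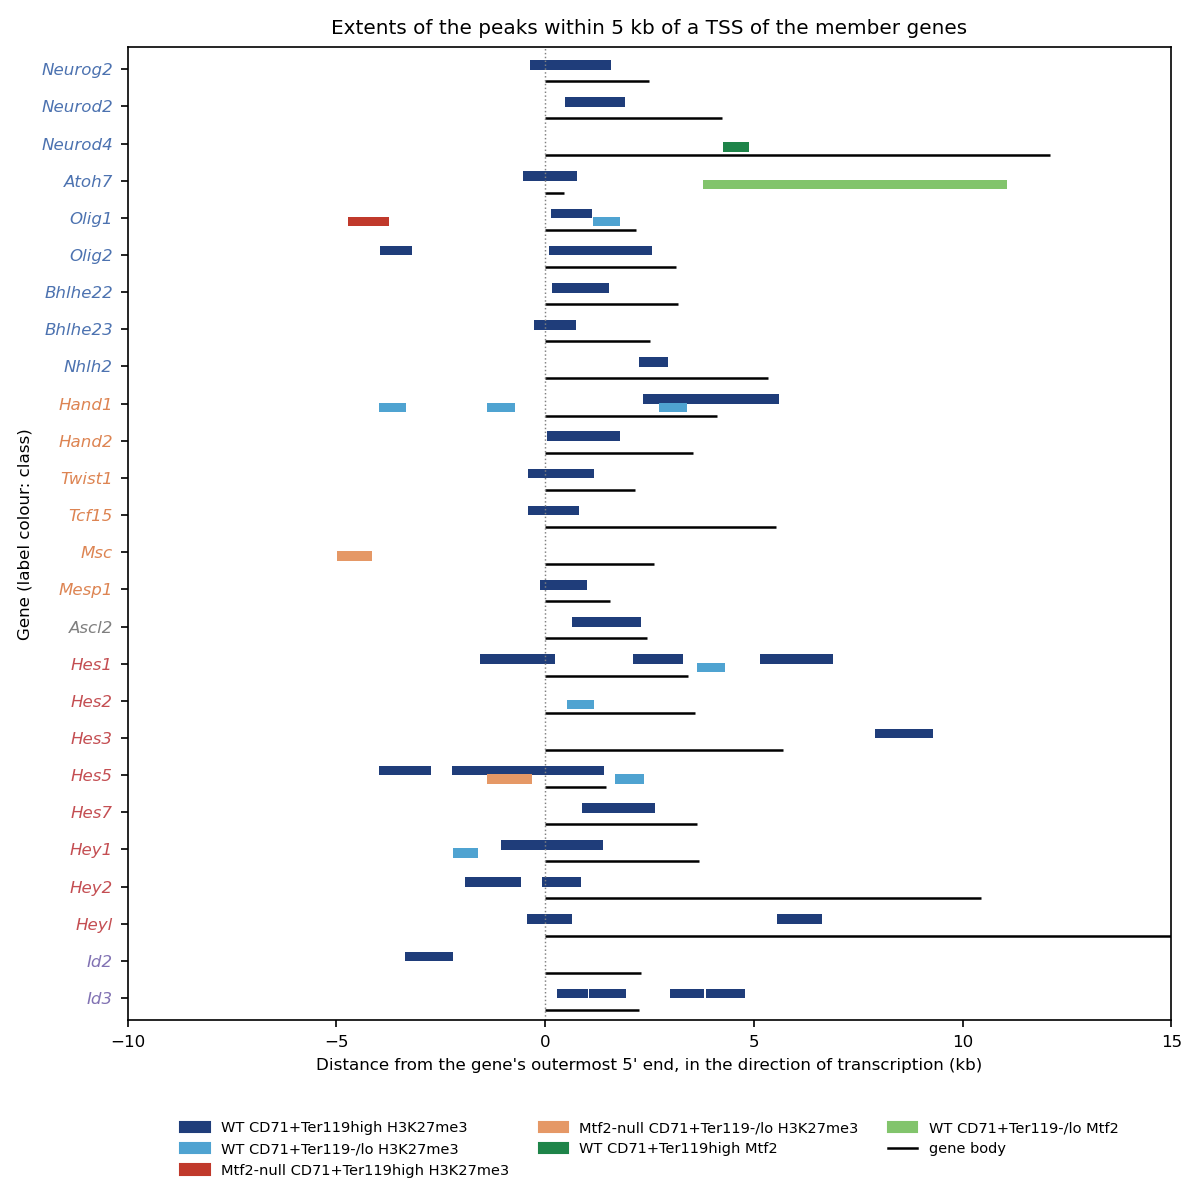
Extents of all peaks within 5 kb of a TSS at the 26 genes that had any, in kb from the gene's outermost 5' end in the direction of transcription. Colour gives the peak list and the black line the gene body, which for *Heyl* runs past the axis. WT CD71+Ter119high peaks of the neural and mesodermal factors sit mostly inside the gene. Those of *Hes1*, *Hes5*, *Hey1* and *Hey2* lie also upstream, and that of *Id2* lies only upstream. The Mtf2-null CD71+Ter119high peak at *Olig1* lies 4.14 kb upstream.

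At the 46 genes the earlier fraction held few and weak H3K27me3 peaks. Its whole WT list was not short, with 4992 peaks beside 4490 in WT CD71+Ter119high cells. Within 5 kb of a TSS lay 723 of the 4992, beside 2881 of the 4490. In WT CD71+Ter119-/lo cells 8 peaks lay at *Olig1*, *Hand1*, *Hes1*, *Hes2*, *Hes5* and *Hey1*, with 16 to 18 tags each, scores from 50.3 to 62.4 and fold enrichments from 5.48 to 11.0. The fewest tags of any peak in that library were 16, so all 8 were at or close to its lower limit. *Hand1* had 3 of them and the other genes had 1 each. The *Hes5* peak lay nearer to a TSS of *Pank4*, and 1 of the *Hand1* peaks nearer to *Gm11003*.

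Of the 6 genes, 5 also had a WT CD71+Ter119high peak, all but *Hes2*, beside 50.9% of all genes with a peak in the earlier fraction. The peaks of the 2 fractions seldom coincided at these genes. Only at *Hand1* did they overlap, by the full 671 bp of the smaller peak, which makes 1 of 5 genes beside 66.0% of the 373 genes with a peak in both fractions. At *Olig1* the 2 peaks were 15 bp apart and at *Hes5*, *Hes1* and *Hey1* the gaps were 256, 329 and 543 bp. The CG-free *Hey1* window printed above was from the earlier fraction. In CD71+Ter119-/lo cells 2 of the 8 summits were CpG island-like (GC of at least 50% and a CpG observed/expected ratio of at least 0.6 in 1 kb), as were 18.0% of all peaks near a TSS in that library.

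The peak call depends on depth, which was lower in the earlier fraction. At the tag density of their WT CD71+Ter119high peaks, the 23 genes would hold between 15.1 and 92.0 tags in the WT CD71+Ter119-/lo library, with a median of 39.7. That is at least the 16 tags of its smallest peak for 22 of the 23 genes, all but *Nhlh2*. The median peak of that library had 22 tags. The comparison takes no account of the IgG background or of peak length, and tags outside called peaks were not analysed here. Whether depth bears on the missing peaks was not tested.

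In Mtf2-null CD71+Ter119high cells no H3K27me3 peak was called within the window at 22 of the 23 genes, beside 98.8% of all genes with a WT peak there. The members therefore followed the whole library and did not stand apart from it. The exception by count, *Olig1*, had a peak of 54 tags (95% interval 40.6 to 70.5) at chr16:91265298-91266280, with a fold enrichment of 4.90 and a score of 71.2. It lay 3.87 kb from the WT peak of *Olig1* and did not overlap it, and it is the repetitive CG-free sequence printed above. None of the 35 WT CD71+Ter119high peaks at these genes thus overlapped an Mtf2-null CD71+Ter119high peak within the windows. All 12 of the other tissue factors with a WT peak, all 9 inhibitors and *Ascl2* lacked one in the Mtf2-null library.

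The Mtf2-null library was the deeper one. At the WT tag density the 23 genes would hold 53.6 to 326 tags in it. Its smallest peak had 35 tags and its median peak 87. The comparison takes no account of the IgG background or of peak length, and whether depth bears on the missing peaks was not tested. The Mtf2-null list held 5791 peaks, more than the 4490 of the WT list. Within 5 kb of a TSS lay 5.96% of them, beside 64.2% in the WT list. Peaks of the Mtf2-null library also differed from the WT peaks in base composition near every gene, not only near these. Of the 345 Mtf2-null CD71+Ter119high peaks within 5 kb of any TSS none was CpG island-like at the summit, whereas 65.8% of the 2881 such WT peaks were, and 26 of the 35 member peaks. Whether this shift in composition between the libraries bears on the missing peaks was not tested.

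In CD71+Ter119-/lo cells the WT peak had no Mtf2-null counterpart within the window at 5 of the 6 genes, beside 94.7% of all genes marked there in WT. *Hes5* was the exception. Its Mtf2-null peak, 40 tags (95% interval 28.6 to 54.5) at chr4:154333636-154334716 with a fold enrichment of 7.29 and a score of 77.7, ranked 87 of 1407. It lay 839 bp upstream of the TSS, 1.99 kb from the WT peak of the same fraction, and overlapped 3 of the 4 WT CD71+Ter119high peaks, 1 of them over its full 854 bp. *Msc*, a repressor of myogenic genes without any WT peak, had an Mtf2-null peak of 30 tags 4.39 kb upstream, with a score of 51.4. In this library every peak had an FDR of 100%, a value the peak caller estimates by exchanging ChIP and IgG, so neither peak stands above what the exchange gave.

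Mtf2 peaks lay at 2 of the 46 genes, 1 in each fraction, beside the 1.51% and 8.46% of all genes given above. In WT CD71+Ter119high cells its only peak lay in an intron of *Neurod4*, a neuronal differentiation factor without H3K27me3 peak, 4.33 kb from the TSS, with 16 tags, a fold enrichment of 12.4 and a score of 59.9. In WT CD71+Ter119-/lo cells it lay downstream of *Atoh7*. That peak was long and strong, 384 tags over 7275 bp at chr10:62566692-62573966 with a score of 663, yet its summit was 4.99 kb from the TSS, at the edge of the window, and it began 3.02 kb from the H3K27me3 peak of *Atoh7* in the other fraction. The 23 genes with a WT CD71+Ter119high H3K27me3 peak had no Mtf2 peak in that fraction, where 1.51% of all genes had one, so a count of 0 is near the background. In the 1 kb around its summit the *Neurod4* peak had a CpG observed/expected ratio of 0.117. The summit of the *Atoh7* peak lay in the tandem repeat printed above. At a ratio of 0.638 and 50.2% GC, close to the limit of 50%, it was CpG island-like. Most Mtf2 peaks near all genes were not. Of 348 near a TSS in CD71+Ter119high cells none was CpG island-like, and of 2016 in CD71+Ter119-/lo cells 2.43% were.

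**Figure D4:**
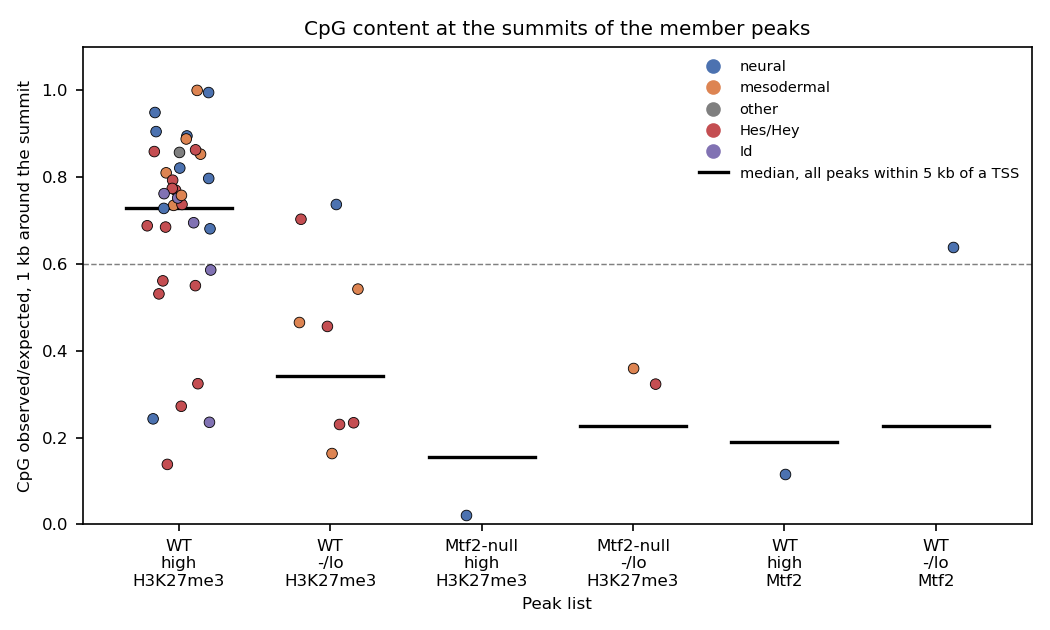
CpG observed/expected ratio in the 1 kb around the summit of each member peak, by peak list, with points coloured by class and spread sideways only to separate them. Black bars are the medians of all peaks within 5 kb of a TSS in each list and the dashed line marks 0.6. In WT CD71+Ter119high cells most points lie near the list's median of 0.729, while the *Olig1* peak of Mtf2-null CD71+Ter119high cells is at 0.0208.

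The base composition at the gene start went along with the WT CD71+Ter119high peaks. Of the 46 genes, 24 were CpG island-like in the 1 kb around the outermost 5' end, and 16 of these carried a peak (66.7%), beside 18.2% of all island-like genes. Of the 22 others 7 did (31.8%), beside 6.26% of all such genes. Members were above the background in both parts of this split, with the same limit that they were chosen with earlier results known.

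The 2 properties did not coincide at every gene. *Neurog1*, *Neurod1*, *Atoh1*, *Ptf1a*, *Twist2*, *Msc*, *Hes6* and *Id4* were island-like without a peak, and *Neurod2*, *Nhlh2*, *Hand1*, *Mesp1*, *Hes3*, *Hes7* and *Heyl* carried a peak without being island-like at the start. None of the 4 muscle factors was island-like, with CpG ratios around a median of 0.393, so their lack of a peak and their composition cannot be told apart. Among island-like genes alone, 9 of 15 tissue factors (60.0%) and 6 of 8 inhibitors (75.0%) carried a peak. Among the other genes, the tissue factors *Neurod2*, *Nhlh2*, *Hand1* and *Mesp1* and the inhibitors *Hes3*, *Hes7* and *Heyl* did. Whether composition bears on the difference between the sides was not tested.

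**Figure D5:**
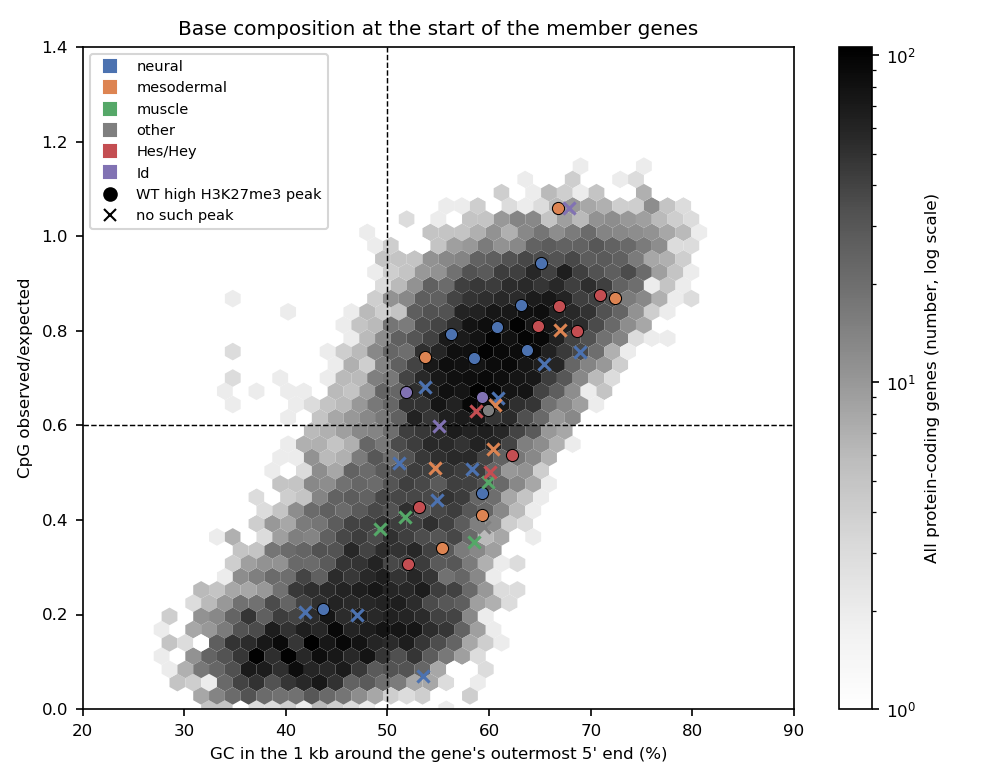
GC (%) against CpG observed/expected ratio in the 1 kb around the outermost 5' end of the 46 genes, coloured by class, with circles for genes with a WT CD71+Ter119high H3K27me3 peak and crosses for those without. Grey shading counts all protein-coding genes on a log scale, and dashed lines mark 50% and 0.6. Of the 24 genes in the upper right part 16 are circles, of the 22 others 7.

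The genes of the Notch pathway, upstream of the *Hes* and *Hey* genes, were read in the same way. Of 20 genes 7 carried a WT CD71+Ter119high H3K27me3 peak, beside 11.6% of all genes, namely the ligands *Dll1*, *Dll3*, *Dll4*, *Jag1* and *Jag2*, the receptor *Notch3* and *Lfng*, a glycosyltransferase that modifies Notch receptors. *Jag2* had the strongest, with 124 tags and a score of 229. *Dll3* and *Jag1* also had a WT CD71+Ter119-/lo H3K27me3 peak, 2 of 20 beside 3.3% of all genes. None of the 20 had a peak in an Mtf2-null list, beside 1.64% and 1.28%, and *Dtx4* had Mtf2 peaks in CD71+Ter119-/lo cells, 1 of 20 beside 8.46%, counts that are near the background. Of 12 further bHLH genes outside the group, *Atoh8* had a peak in WT CD71+Ter119high H3K27me3 and none had one in another list, again near the background.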

How the data were processed

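H3K27me3 and Mtf2 ChIP-seq peak lists of 6 libraries were analysed, with 4 IgG libraries as the authors' controls. Per the labels, reads were aligned with Bowtie2 2.2.3 to mm9 and peaks called with MACS 1.3.7 at a p cutoff of 1e-05. The authors deposited, per peak, the tag count (not normalized for depth), a score (10 times the negative log10 of p), a fold enrichment, which is a ratio to local IgG, and an FDR in percent. MACS counts tags without correcting for GC content, so lists can differ in the composition they favour.

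Peaks were joined to protein-coding genes of GENCODE M1 (NCBIM37) by overlap of at least 1 base with 5 kb on either side of any TSS. Classes followed gene family and the tissue in which a factor is known to act. Base composition was read in 1 kb around summits and outermost 5' ends. Tag intervals are exact Poisson at 95% and cover counting error only. The overlap steps were tested on simulated intervals. Values are given in full for the 3 best-scoring WT CD71+Ter119high genes of each class, for genes with an Mtf2-null, Mtf2 or WT CD71+Ter119-/lo peak and for all *Hes*, *Hey* and *Id* genes, and otherwise as ranges. The members and lists were chosen with earlier results of these data known. Other windows, thresholds and gene assignments were tried as alternatives. Python 3.11.15, numpy 2.4.6, pandas 2.3.3 and scipy 1.17.1 were used.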

Additional observations from a re-analysis of the deposited data

How the results depend on the processing

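Each of 10 counts was recomputed under 10 alternatives, and 69 of the 100 values stayed within 1.5 times the reported one. Keeping scores of 100 or more, FDR values of 5% or less, or the 1407 highest-scoring peaks of each list, the length of the shortest list, each left 14 of 23 genes with a WT CD71+Ter119high H3K27me3 peak. All 14 of these lacked an Mtf2-null one, and 7 of the 13 tissue factors and 6 of the 9 inhibitors were among them. The same 3 settings left 0 of 6 genes in WT CD71+Ter119-/lo cells, and 0 of 5 without an Mtf2-null peak. They left 0 genes with an Mtf2 peak in CD71+Ter119high cells. In Mtf2-null CD71+Ter119high cells the score and the equal number of peaks left 0, as did the score and the FDR in the Mtf2-null CD71+Ter119-/lo list. A window of 1 kb gave 2 genes in WT CD71+Ter119-/lo cells, both without an Mtf2-null peak, 0 and 1 in the Mtf2-null CD71+Ter119high and CD71+Ter119-/lo cells, and 0 for Mtf2 in both fractions. A window of 10 kb gave 2 for Mtf2 in CD71+Ter119high cells and added *Myog* and *Hes2* to the WT CD71+Ter119high genes. Counting from 5 kb upstream to 1 kb past the gene end, or only peaks with at least 50% of their length in the window, left 0 for Mtf2 in CD71+Ter119-/lo cells. Inhibitors exceeded tissue factors in the share with a WT CD71+Ter119high peak under all 10 alternatives, by counts only. No paired analysis was possible because each condition had 1 library and the result comes from no test. A missing peak is no measured absence of the mark, and how depth bears on the weak peaks was tried only as the equal-density values above.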
